A study of Mus musculus with 14 samples.

Results

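The cytosolic ribosomal protein genes encode the proteins of the large (Rpl) and small (Rps) subunits of the ribosome that translates nuclear-encoded mRNA. They were taken as the protein-coding mouse genes whose GENCODE symbol starts with Rpl or Rps followed by a digit, together with Rplp0, Rplp1, Rplp2 and Rpsa, without the Rps6k kinase genes and without symbols ending in -ps. The rule gave 86 genes of 51626 gene symbols. Of these, 52 carried a large subunit name and 33 a small subunit name. Rps19bp1, the remaining gene, encodes AROS, a protein that binds Rps19 and the deacetylase SIRT1 and is no ribosomal protein, so the rule took it by name alone. Among the others, 77 were core genes and 8 were paralogues of a core gene.

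RNA was measured by sequencing in 14 libraries of newborn mice at postnatal day 0.5, as FPKM per transcript, that is fragments corrected for the length of the transcript and the size of the library, and transcripts were summed per gene. The rostral (frontal) cortex set compared 4 wild type C57BL6/J libraries with 4 Auts2 cKO libraries, C57BL6/J with EMX1-cre and exon 15 of Auts2 floxed on both alleles. Emx1 drives Cre in the progenitors of cortical excitatory neurons and glia, so cells of other origin in the cKO keep the gene, and the controls carried neither EMX1-cre nor the floxed allele. The pull-down set used C57BL6/J cortex pooled from 2 neonates per replicate. Each of 2 pools was split into an RNA immunoprecipitation with an antibody to the C terminus of AUTS2 (RIP), an immunoprecipitation with IgG and a 10% input. The cKO asks which transcripts change without Auts2, and the pull-down asks which RNAs are associated with the AUTS2 protein. The 3 tables, of frontal cortex, of RIP with IgG and of RIP with input, were scaled separately, so tests were made within a table.

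Ribosomal protein mRNAs are among the most abundant mRNAs of growing cells. Most begin at their 5′ end with a C followed by a stretch of C and T, the terminal oligopyrimidine (TOP) motif, through which mTOR signalling and the RNA-binding protein LARP1 control their translation. Their introns often hold small nucleolar RNAs, and several ribosomal protein genes regulate their own level through transcripts that retain an intron or are otherwise not fully spliced. In the developing cortex progenitors are known for high ribosome production that declines as neurons differentiate.

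RefSeq promoter windows (build GRCm38.p6, 250 bases before to 50 bases after an annotated start) were at hand for 66 of the 86 genes. The sequences are shown because the pyrimidine stretch is what these mRNAs share. They belong to the 4 genes with the lowest and the 4 with the highest log2 fold change in RIP against input among the 66. Each is a stretch of 30 bases, 5′ to 3′ on the gene's strand, and the capitals mark the longest run of C and T that begins with C between 30 bases before and 50 bases after the annotated start.
Rps15a, chr7:118116139-118116168, minus strand: ggcccaCTCTCTTTCTgccatcttccctcg
Rpl39, chrX:37085173-37085202, minus strand: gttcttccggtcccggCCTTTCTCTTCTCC
Rpl34, chr3:130730331-130730360, minus strand: cacccgCCCCTTCCTTTTCCTCTTCCgggg
Rps23, chr13:90923142-90923171, plus strand: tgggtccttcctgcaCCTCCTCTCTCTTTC
Rpl4, chr9:64173407-64173436, plus strand: gcgtggCCTTCTCCTCTCCCCgtcatggtg
Rps25, chr9:44407686-44407715, plus strand: accgggCTTCCTTTTTTTCCgacatcttag
Rpl10a, chr17:28328576-28328605, plus strand: gctctgCCTTCTTTCCggtttccgcggcag
Rps19bp1, chr15:80264284-80264313, minus strand: aagtagCTCgccgcgtgtgggcggggctcg

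The 7 ribosomal protein genes shown had runs of 10 to 20 bases, whether their fold change in RIP against input was at the low or the high end. For a gene with several promoter entries the one with the longest run was shown, so this choice favours long runs. The longest run of Rps19bp1 was 3 bases. The runs of Rps15a, Rpl34 and Rps25 began 15, 17 and 22 bases before the annotated start. Those of Rpl39, Rps23, Rpl4 and Rpl10a began 36, 35, 26 and 17 bases after it. The runs of Rpl39 and Rps23 reached the end of the window and may be longer. A run of at least 8 bases was found on the gene's strand for 50 of the 66 genes (75.8%) and for 7025 of 27025 genes with a promoter entry (26.0%). It was found for 33 of 45 genes called lower in RIP than in input (73.3%) and for 16 of 18 genes not called (88.9%). The motif CCGGAAG, the core bound by ETS factors such as GABPA, was found on either strand in 26 of the 66 genes (39.4%) and in 2683 of 27025 genes (9.9%). Read on the opposite strand it is CTTCCGG, whose first letters are C and T only, so both searches can meet at the same bases. In these counts a gene with several entries was counted if any of them had the run or the motif. The annotated start is not always the start of the TOP mRNA, and a match is a description of letters. Rpl3, Rpl23a, Rps27a, Rpl30, Rps20, Rpl29, Rpl8, Rpl36, Rpl17, Rpl21, Rplp1, Rpl7, Rps14, Rpl32 and Rps29 were among the genes with no entry.

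The libraries' summed FPKM ran from 282029 to 340979, and the deposited values hold no read counts, so the depth is unknown. Auts2 itself was lower in each cKO library (29.8, 35.2, 30.4 and 34.5 FPKM) than in any wild type library (87.7, 92.2, 55.9 and 60.3 FPKM). The pull-down tables gave Auts2 139 and 185 FPKM for input A and B, 234 and 239 for IgG and, in the input table, 279.5 and 279 for RIP. Markers of cortical excitatory neurons were measured at a mean of at least 1 FPKM for 8 of 8 genes in each table, and in frontal cortex 0 of 4 choroid plexus and 0 of 4 meningeal markers reached that mean.

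In frontal cortex the 86 genes held 7.01, 7.03, 6.51 and 6.28% of all FPKM in wild type and 8.02, 6.40, 6.43 and 6.69% in the cKO. Library cKO 1 stood above all others, and the other 3 cKO libraries lay within the wild type range. In the IgG table the share was 1.37 and 1.69% in RIP and 1.46 and 1.47% in IgG. In the input table it was 2.73 and 2.89% in input. Input libraries thus held more of these RNAs than RIP, and RIP and IgG overlapped. Frontal cortex was sequenced from polyA RNA with TruSeq kits and the pull-down from total RNA with a SMARTer Stranded kit, so shares across the sets stand side by side without a comparison.

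**Figure D1:**
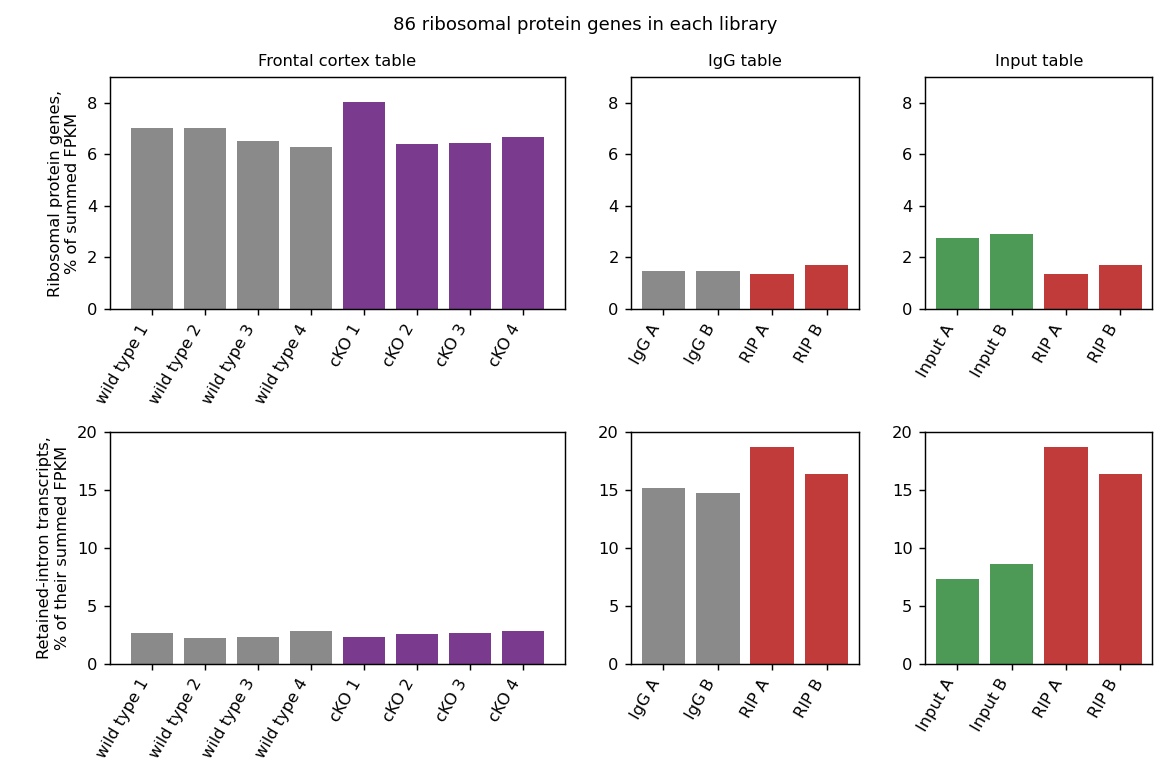
Each bar is 1 library. The upper row gives the percent of summed FPKM held by the 86 genes, from 6.28 to 8.02% in frontal cortex and from 1.37 to 2.89% in the pull-down tables, and the lower row gives the percent of that held by retained-intron transcripts, which is 2.24 to 2.83% in frontal cortex and 18.7% and 16.4% in the RIP libraries.

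FPKM is scaled per length, so levels can be set beside each other between genes. In wild type frontal cortex the core genes had a median of 286 FPKM. The highest mean levels were those of Rplp1 (652 ± 42.6 FPKM, SD, n = 4), an acidic protein of the stalk that recruits elongation factors, of Rpsa (501 ± 37.0), the laminin receptor homologue of the small subunit, of Rps15 (499.5 ± 26.1), a small subunit protein next to the decoding centre, of Rplp0 (495 ± 42.7), the base of the stalk, and of Rpl13a (465.5 ± 49.4), a large subunit protein. Their SDs overlap except for Rplp1, which lay above the other 4 in each wild type library.

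Rpl13, a core gene of the large subunit that every cell uses, had a listed value of 0 in each of the 8 frontal cortex libraries. In the pull-down it stood at 28.4 and 32.3 FPKM in input and 30.4 and 29.96 FPKM in RIP. An exact 0 can be a failed estimate, and Rpl13 entered no test in frontal cortex.

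The paralogues were low. In wild type frontal cortex Rpl22l1, the paralogue of Rpl22, stood at 73.0 ± 5.21 FPKM, Rpl36al at 55.4 ± 2.30, Rps27l at 31.5 ± 2.75, Rpl7l1 at 21.2 ± 1.81 and Rps27rt, a retrotransposed copy of Rps27, at 6.00 ± 0.347 FPKM (SD, n = 4). Rpl39l, known for its expression in spermatogenic cells, reached 0.321 FPKM in wild type 2 and 0 in the other 3 wild type libraries. Rpl3l, the heart and skeletal muscle paralogue of Rpl3, reached at most 0.143 FPKM in any of the 8 libraries, and Rpl10l, the testis paralogue of Rpl10, was listed at 0 in every library of the 3 tables. A paralogue shares sequence with its parent, and 60 of the 86 genes also have named -ps pseudogenes, so reads could be split between copies and single levels are uncertain.

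No ribosomal protein gene passed the test in the Auts2 cKO. Of the 86 genes, 82 were tested, and 0 passed an adjusted p under 0.05 in either direction (limma, Benjamini-Hochberg over 12786 genes), against 0.00782% of all genes called higher and 0.0156% called lower. At an unadjusted p under 0.05 the count was again 0 of 82, against 7.91% of all genes. With coding transcripts alone it stayed 0 of 82 called, against 0.00864% of all genes higher and 0% lower. The groups did not separate for any of the 82 genes, against 2.65% of all genes separated with the cKO higher and 1.76% with the cKO lower. The log2 fold changes ran from -0.11 to 0.13, and their 95% intervals all lay between -0.30 and 0.42. Rpl10l, Rpl13, Rpl39l and Rpl3l were not tested because their mean was under 1 FPKM.

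The values of Rpl18, a large subunit protein and the gene with the highest fold change, were 238, 262, 227 and 211 FPKM across the wild type libraries and 322.5, 226, 241 and 243 FPKM across the cKO libraries. One library, cKO 1, lay above the wild type range, and the other 3 lay inside it. The log2 fold change was 0.13 (SE 0.10, adjusted p = 0.706, limma). Rplp1 gave 640.4, 706, 658 and 604 FPKM for the wild type libraries and 847, 641, 658 and 697 FPKM for the cKO libraries (log2 fold change 0.12, SE 0.09, adjusted p = 0.682, limma). Again cKO 1 alone exceeded the wild type libraries. Rpl15, a large subunit protein with the smallest unadjusted p (0.134), gave 160.3, 165, 156 and 158 FPKM for the wild type libraries and 188, 156, 174 and 171 FPKM for the cKO libraries, with overlap between the groups. Rpl3, which lines the peptidyl transferase region, had means of 286 ± 15.6 FPKM (wild type) and 309.5 ± 26.6 FPKM (cKO), a log2 fold change of 0.11. Rpl13a (0.11) and Rps27rt (0.12) complete the 6 highest.

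At the low end stood Rpl7l1, a paralogue of Rpl7 with a role in ribosome assembly, with 22.96, 22.4, 20.2 and 19.1 FPKM for the wild type libraries and 22.01, 19.6, 17.7 and 18.8 FPKM for the cKO libraries. Its groups overlapped (log2 fold change -0.11, SE 0.09, adjusted p = 0.688, limma). It was followed by Rpl22l1 (-0.03), Rpl36al (-0.02) and Rpl36a (-0.02), the X-linked parent of Rpl36al. Rps16 and Rps2, small subunit proteins, had wild type means of 162 ± 10.8 and 374 ± 17.0 FPKM and cKO means of 163 ± 20.7 and 375 ± 39.8 FPKM. The wild type mean of Rps19bp1 was 19.3 ± 0.974 FPKM and its cKO mean 20.1 ± 1.90 FPKM (log2 fold change 0.05).

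A small common shift rested on cKO 1. The fold change was positive for 76 of 82 genes, against 50.4% of all genes, with a median log2 of 0.05 against 0.00 over all genes. Large subunit core genes had a median of 0.06 and small subunit core genes of 0.05 (0.045). Of the 82 genes, 80 had their highest value of all 8 libraries in cKO 1, and 49 had their lowest in wild type 4. These counts were not made over all genes. The summed FPKM of all transcripts was also highest in cKO 1 (340979) and lowest in wild type 4 (330638) among the 8 libraries. Without cKO 1, 18 of 82 genes were positive, against 51.4% of all genes, and the median was -0.02. It was -0.001 after quantile normalization and -0.01 when the trend with transcript length was removed, so its sign depended on the scaling. Proliferation markers were also highest in cKO 1, with a mean log2(FPKM + 1) of 3.49 against 3.02 to 3.06 in the other cKO and 3.17 to 3.30 in the wild type libraries, and so were interneuron markers at 5.11 against 4.50 to 4.75 in the other 7. Radial glia markers (4.66 against 4.25 to 4.54) and red blood cell markers (2.62 against 2.30 to 2.60) were highest there too. Markers of intermediate progenitors (2.19, against 2.26 in wild type 1), oligodendrocytes, microglia and endothelium were not highest there. Those of excitatory neurons were lowest there (5.69 against 5.71 to 5.84 in the other 7). So were those of astrocytes (3.11 against 3.13 to 3.48) and striatum (2.41 against 2.46 to 2.97). The part of these cell types in the level of the ribosomal protein genes in cKO 1 was not tested. In bulk tissue fewer cells of a type and less RNA per cell cannot be told apart.

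**Figure D2:**
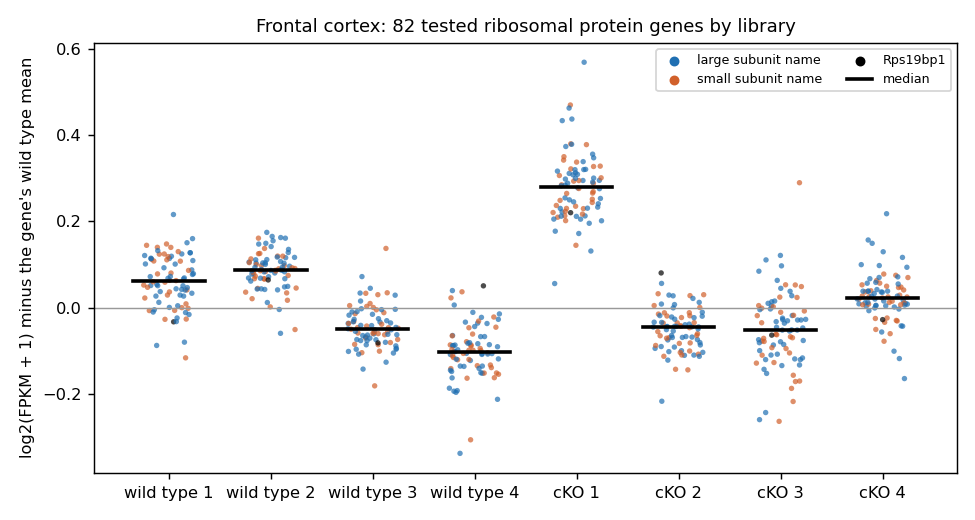
Each point is 1 of 82 tested genes in 1 library, as log2(FPKM + 1) minus the gene's mean over the 4 wild type libraries, and the bars are medians. The points of cKO 1 lie above 0, with a median of 0.28, while the other 3 cKO libraries overlap wild type.

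Ribosomal components outside the naming rule did not pass the test either. Fau, which encodes Rps30 fused to a ubiquitin-like protein, had a log2 fold change of 0.08 (adjusted p = 0.801, limma), and Rack1, a scaffold on the small subunit, of 0.05 (adjusted p = 0.828, limma). Of the related lists, 0 of 16 TOP mRNAs that encode other translation proteins, 0 of 37 ribosome biogenesis genes, 0 of 15 regulators of TOP mRNAs and 0 of 78 mitochondrial ribosomal protein genes were called. At an unadjusted p under 0.05 these counts were 0, 5, 0 and 7, where 7.91% of all genes had such a p. Of 81 oxidative phosphorylation genes 0 were called and 7 had such a p. Their fold change was positive for 76 of the 81, against 50.4% of all genes. Their median log2 fold change was 0.10, beside 0.05 for the ribosomal protein genes.

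The AUTS2 pull-down held less ribosomal protein mRNA than its input. Of 84 genes tested, 59 were called lower (70.2%), against 16.6% of all 14458 genes, and 1 was called higher, Rps19bp1, against 19.3%. An unadjusted p under 0.05 was found for 68 genes, against 47.1% of all genes. The median log2 fold change was -1.08, against -0.02 over all genes. In 70 of 84 genes both RIP libraries lay below both inputs, against 35.2% of all genes, and in 5 both lay above, against 35.9%. In 40 genes RIP was at least 2-fold lower in both trios, against 11.4% of all genes, and in 0 it was at least 2-fold higher in both, against 9.04%.

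The small subunit genes stood lowest, with 27 of 31 core genes called lower, against 16.6% of all genes. Their median log2 fold change was -1.44, and the difference from the large subunit genes was not tested. Rps15a, a small subunit protein encoded on chromosome 7 (positions 118104372 to 118116188, GRCm38, minus strand), had 81.6 and 81.9 FPKM in input and 11.8 and 8.82 FPKM in RIP. Its log2 fold change was -2.89 (SE 0.16, adjusted p = 0.000677, limma), the lowest of the 84. Rps23, a protein of the decoding centre, had 89.7 and 73.3 FPKM in input and 14.5 and 15.8 FPKM in RIP (log2 fold change -2.34, SE 0.14, adjusted p = 0.00072, limma). Both RIP libraries of both genes lay far below both inputs.

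Rps7, whose loss of a copy causes Diamond-Blackfan anaemia in humans, had 126 and 158 FPKM in input and 20.2 and 35.8 FPKM in RIP (log2 fold change -2.34). Rps13 had 48.0 and 46.5 FPKM in input and 9.09 and 10.4 FPKM in RIP (log2 fold change -2.17, SE 0.14, adjusted p = 0.000722, limma). Rps6, Rps25 and Rps26, chosen for naming after their values were seen, were among the 4 small subunit core genes not called. Rps6, the substrate of the S6 kinases, had 141 and 159.5 FPKM in input and 125 and 156 FPKM in RIP, with overlap.

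Of the large subunit core genes 30 of 46 were called lower, with a median log2 fold change of -0.92. The 4 stalk genes were all called lower, beside 74% of core genes and 16.6% of all genes. Rplp1 fell from 523 and 624 FPKM in input to 85.2 and 116 FPKM in RIP (log2 fold change -2.51, SE 0.17, adjusted p = 0.000765, limma). The stalk base Rplp0 had 143 and 145 FPKM in input and 31.3 and 43.0 FPKM in RIP (log2 fold change -1.94, SE 0.16, adjusted p = 0.00106, limma). Rpl34, a large subunit protein, had 163 and 216 FPKM in input and 26.0 and 42.5 FPKM in RIP (log2 fold change -2.46, SE 0.25, adjusted p = 0.00167, limma).

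The genes around the exit of the nascent chain were mixed. Of 7 such genes 3 were called lower, beside 16.6% of all genes, and their median log2 fold change was -0.09. Rpl39, a small protein of the tunnel wall, had 38.8 and 48.2 FPKM in input and 5.67 and 8.32 FPKM in RIP (log2 fold change -2.49, SE 0.22, adjusted p = 0.00116, limma). In contrast Rpl4, which also lines the tunnel, had 163 and 179.7 FPKM in input and 203 and 257 FPKM in RIP, above both inputs (log2 fold change 0.42, SE 0.13, adjusted p = 0.056, limma, not called). Rpl23a, at the tunnel exit, had 198 and 244 FPKM in input and 259 and 347.5 FPKM in RIP (log2 fold change 0.45, adjusted p = 0.0895, limma, not called). Rpl35, also at the exit, had 87.6 and 94.8 FPKM in input and 98.6 and 103 FPKM in RIP (log2 fold change 0.14, 95% interval -0.09 to 0.38).

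Of the pair that carries 5S RNA into the ribosome, Rpl11 was called lower and Rpl5 was not. Rpl11 had 87.7 and 76.9 FPKM in input and 32.0 and 37.2 FPKM in RIP, while Rpl5 had 44.8 and 59.0 FPKM in input and 38.4 and 41.9 FPKM in RIP. The 4 X-linked genes, Rpl10, Rpl36a, Rpl39 and Rps4x, were all called lower, with a median of -1.61. Among the 77 core genes 57 were called lower (74%), and among all genes 16.6%. Core genes that hold small nucleolar RNAs in their introns were called lower in 22 of 30 cases with a median of -1.08, beside 35 of 47 with a median of -1.18 among the others, a difference that was not tested.

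At the high end Rpl10a, a protein of the mobile large subunit stalk opposite the acidic one, had 15.3 and 24.9 FPKM in input and 31.1 and 27.5 FPKM in RIP (log2 fold change 0.56, SE 0.24, adjusted p = 0.117, limma, not called). Rps25, known for its role at viral internal ribosome entry sites, had 31.5 and 55.0 FPKM in input and 53.7 and 61.0 FPKM in RIP, with overlap (log2 fold change 0.45). Rps19bp1 was the only gene called higher, with 15.7 and 9.53 FPKM in input and 23.8 and 21.6 FPKM in RIP (log2 fold change 0.84, SE 0.24, adjusted p = 0.0408, limma). That call was lost without input B (log2 fold change 0.51, adjusted p = 0.0792), without RIP A (adjusted p = 0.232) and without RIP B (adjusted p = 0.164).

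Of the 8 paralogues 6 were tested, and 2 of them, Rps27l and Rps27rt, were called lower, beside 16.6% of all genes. Rps27l, a p53-responsive paralogue of Rps27, had 5.66 and 4.37 FPKM in input and 1.21 and 0 FPKM in RIP, and Rps27rt had 4.53 and 3.85 FPKM in input and 0.653 and 0.666 FPKM in RIP. Both passed the filter of 1 FPKM through their input level alone, with RIP means of 0.606 and 0.659 FPKM. The calls were lost with the length trend removed (adjusted p = 0.0775 for Rps27l and 0.0768 for Rps27rt, limma) and without RIP B (0.0783 and 0.0655). That of Rps27l was also lost with a pseudocount of 0.1 (0.0558) and without input A or input B (0.12 and 0.0876), and that of Rps27rt without RIP A (0.0756). Rpl36al and Rpl22l1 did not pass the test, with log2 fold changes of -0.33 and -0.17.

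**Figure D3:**
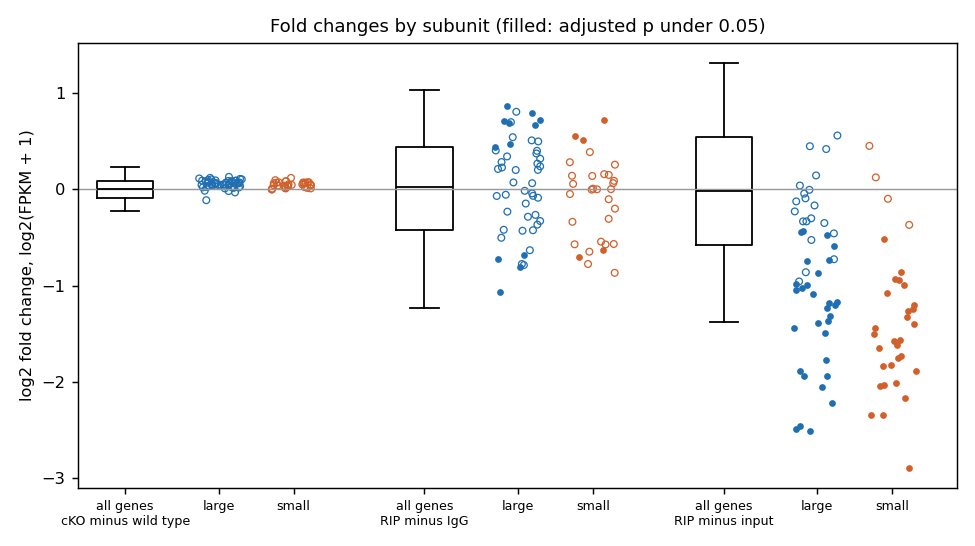
Log2 fold changes on the log2(FPKM + 1) scale in the 3 comparisons. Boxes give the quartiles and whiskers the 5th and 95th percentiles of all genes tested, points are the genes by subunit name without Rps19bp1, and filled points passed an adjusted p under 0.05. The points against input lie mostly below 0, with medians of -0.92 for large and -1.44 for small core genes, and those of the cKO lie close to 0.

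Against IgG the ribosomal protein genes were called about as often as all genes. Of 82 genes tested, 11 were called higher in RIP than in IgG (13.4%), against 13.7% of all 14570 genes, and 6 were called lower (7.32%), against 9.69%. An unadjusted p under 0.05 was found for 32 of 82 genes, against 38.1% of all genes, and 43 of 82 had a positive fold change, against 51.3%. The median log2 fold change was 0.03, against 0.02 over all genes, and it was -0.02 after median-ratio rescaling and -0.12 after quantile normalization. Both RIP libraries lay above both IgG libraries in 28 genes, against 34.3% of all genes, and below in 20, against 30.2%. No gene was 2-fold different in both trios in either direction, against 8.02% of all genes lower and 4.59% higher.

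The gene with the highest fold change against IgG was the paralogue Rpl36al, with 12.9 and 15.8 FPKM in IgG and 25.3 and 28.6 FPKM in RIP (log2 fold change 0.87, SE 0.16, adjusted p = 0.0148, limma). Rpl35 had 50.5 and 64.0 FPKM in IgG and 96.8 and 101 FPKM in RIP (log2 fold change 0.79, SE 0.14, adjusted p = 0.012, limma). In both genes the RIP libraries lay above both IgG libraries.

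Rpl36, a large subunit protein, had 40.1 and 41.2 FPKM in IgG and 63.0 and 72.8 FPKM in RIP, and was called higher (0.72), as were Rpl4 (0.70), Rpl23a (0.68) and Rpl6 (0.67), proteins of the large subunit. Also called higher were Rps25, Rps15, Rpl17 and Rpl21, with log2 fold changes of 0.55, 0.51, 0.47 and 0.44. Rpl14 (0.80) was not called, with 39.2 and 18.4 FPKM in IgG and 40.5 and 56.2 FPKM in RIP. Of the 7 genes around the nascent chain exit 4 were called higher against IgG, against 13.7% of all genes, and 0 lower, against 9.69%. Their median log2 fold change was 0.47. These calls, of Rpl4, Rpl17, Rpl23a and Rpl35, were lost with quantile normalization and without trend and robust settings.

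The 6 genes called lower than IgG included Rpl23, Rpl15, Rplp1, Rpl30 and Rps3. Rpl23, a large subunit protein known to bind MDM2, had 69.7 and 65.6 FPKM in IgG and 26.9 and 37.3 FPKM in RIP (log2 fold change -1.07, SE 0.17, adjusted p = 0.00879, limma). Rpl15 had 21.8 and 19.5 FPKM in IgG and 11.4 and 11.4 FPKM in RIP (log2 fold change -0.80). Rplp1 had 172 and 153 FPKM in IgG and 83.7 and 114.5 FPKM in RIP (log2 fold change -0.72). Rpl30 and Rps3, the latter of which lines the mRNA entry channel, had log2 fold changes of -0.68 and -0.64. Rps7, Rpl18, Rps16 and Rpl34, the other genes among the 6 lowest, were not called, with fold changes of -0.87, -0.79, -0.78 and -0.78. These calls and those higher than IgG moved with the setting. Some were lost in each of the fits that left out 1 library, where 1 group holds 1 library. With the trio as a block 12 genes were called higher and 11 lower. With the trend with transcript length removed 22 were called higher and 4 lower. The shares of all genes called under these settings are not set beside these counts.

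The input and IgG comparisons share the 2 RIP libraries, so the values are set side by side. Of the 59 genes called lower than input, 49 were not called against IgG, 6 were lower, 2 were higher and 2 were not tested. The 86 genes summed to 8385 and 9127 FPKM in input, to 4148 and 4130.4 FPKM in IgG, and to 4269 and 5243 FPKM in RIP in the input table. The tables were scaled separately, but the same RIP libraries differed between them by a median factor of 1.018 for RIP A and 1.015 for RIP B. No test was made across tables. Both IgG libraries lay below both inputs in 79 of 84 genes that averaged 1 FPKM or more, against 25.1% of all genes. Rps15a, for example, had 13.3 and 17.9 FPKM in IgG beside 81.6 and 81.9 FPKM in input, and Rps23 had 12.01 and 18.4 FPKM beside 89.7 and 73.3 FPKM.

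Transcript length moved with the fold change against input. Across all genes the correlation of log2 length with the log2 fold change was r = 0.32 (14458 genes, which share the same 4 libraries), and the 84 genes were short, with a median transcript length of 762 bases against 2408 bases. Within the 84 genes it was 0.10. With the length trend removed the median was -0.67, with 43 genes called lower and 9 higher. The share of all genes called in that fit is not set beside these counts. The part of length in the remaining difference was not tested.

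**Figure D4:**
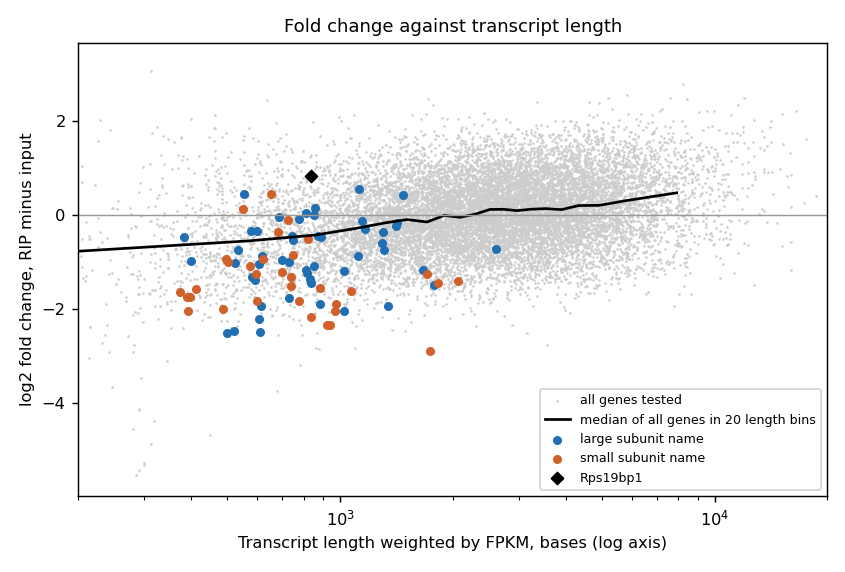
Each point is a gene tested in RIP against input, by transcript length weighted by FPKM (log axis, the shortest and longest genes outside it) and log2 fold change. Most ribosomal protein genes, with a median length of 762 bases, lie below the median of all genes of their length, and Rps19bp1 lies above 0.

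Transcripts that retain an intron took a larger share of these genes in both RIP libraries than in both inputs. In input, retained-intron transcripts made up 7.29 and 8.61% of the FPKM of the 86 genes, in RIP 18.7 and 16.4%, and in IgG 15.1 and 14.8%. Over all genes they made up 7.33 and 7.84% in input, 11.4 and 11.8% in RIP and 9.54 and 10.3% in IgG. The summed FPKM of the coding transcripts was 7246 and 7759.7 in input and 3138 and 3988 in RIP. Retained-intron transcripts summed to 611 and 786 FPKM in input and 798 and 858 FPKM in RIP, above both inputs. With coding transcripts alone, 52 of 83 genes were called lower against input and 0 higher, against 10.4% and 15% of all genes, with a median log2 fold change of -1.38. With retained-intron transcripts alone, 1 of 54 was called lower and 5 higher, against 1.75% and 13.7% of all genes, with a median of 0.33 against 0.44 over all genes. Against IgG, 4 of 81 genes were called higher and 3 lower with coding transcripts alone, against 9.16% and 3.51% of all genes. With retained-intron transcripts alone 2 of 54 were called higher than IgG and 0 lower, against 4.94% and 1.37%.

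The ratio of retained-intron to coding transcripts within a gene was tested after the data were seen. In RIP against input it was higher for 49 of 53 genes, against 59.7% of all 3893 genes, with a median log2 change of 1.53 against 0.22. No gene passed an adjusted p under 0.05 (limma, 0 of 53, and 0 of 3893 over all genes), and 26 had an unadjusted p under 0.05, against 13.7% of all genes. Against IgG the ratio was higher for 38 of 53 genes, against 45.9% of all genes, with a median of 0.25, and 0 passed the adjusted p while 4 had an unadjusted p under 0.05, against 10% of all genes. In the cKO it was higher for 30 of 48 genes, against 42.8%, and 2 had an unadjusted p under 0.05, against 5.71% of all genes.

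Rps13, a small subunit protein whose gene holds 1 annotated small nucleolar RNA, had the smallest p, followed by Rps12, Rpl13 and Rpl41. Its coding transcripts stood at 41.4 and 41.0 FPKM in input and 2.80 and 5.78 FPKM in RIP, while its retained-intron transcripts stood at 2.08 and 1.87 FPKM in input and 3.57 and 4.62 FPKM in RIP (log2 change of the ratio 3.82, SE 0.44, adjusted p = 0.23, limma). Both classes separated, in opposite directions. For Rps12, a small subunit protein, coding transcripts stood below both inputs at 14.6 and 32.1 FPKM against 120 and 187, and retained-intron transcripts stood at 25.9 and 25.6 FPKM against 13.3 and 12.4. For Rpl13 the coding transcripts stood at 7.69 and 8.81 FPKM in RIP against 23.3 and 23.6 in input, and the retained-intron transcripts at 22.7 and 21.1 FPKM against 5.06 and 8.76. The summed level of Rpl13, 30.4 and 29.96 FPKM against 28.4 and 32.3, showed neither difference. Rpl41, the shortest ribosomal protein, had retained-intron transcripts at 33.7 and 37.0 FPKM in RIP against 18.3 and 11.1 in input. How fragments were divided between overlapping transcripts of a gene is an estimate, and its part in these ratios was not tested.

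**Figure D5:**
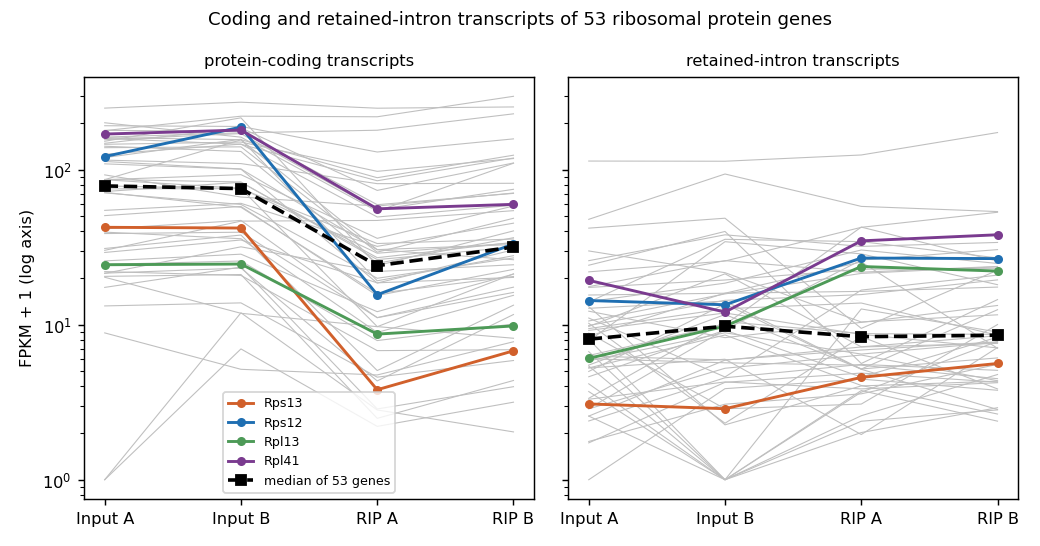
FPKM + 1 (log axis) of the protein-coding and the retained-intron transcripts of the 53 genes with both classes at a mean of at least 1 FPKM, in each input and RIP library. Grey lines are genes, the dashed line is their median, and Rps13, Rps12, Rpl13 and Rpl41 are coloured. Most coding lines are lower in RIP than in input. The coloured genes were picked for the smallest p of the retained-intron to coding ratio, and their retained-intron lines are higher in both RIP libraries. With retained-intron transcripts alone 5 of 54 genes were called higher and 1 lower, against 13.7% and 1.75% of all genes.

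Related lists were read against the 16.6% of all genes called lower and the 19.3% called higher than input. Fau and Rack1 were both called lower, with log2 fold changes of -0.39 and -0.79. Of 16 TOP mRNAs that encode other translation proteins 12 were called lower (75%) and 2 higher, with a median of -0.93, and Tpt1, which encodes the translationally controlled tumour protein, stood at 498 and 502.5 FPKM in input and 143 and 179 FPKM in RIP (log2 fold change -1.64, SE 0.12, adjusted p = 0.000872, limma). Of 81 oxidative phosphorylation genes, short mRNAs that are not TOP mRNAs as a class, 45 were called lower (55.6%) and 2 higher, with a median of -0.91. Of 78 mitochondrial ribosomal protein genes 19 were called lower (24.4%) and 2 higher (2.56%), with a median of -0.36. The median over all genes was -0.02. In 41 of the 78 genes both RIP libraries lay below both inputs, against 35.2% of all genes, and in 9 above, against 35.9%.

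The ribosome biogenesis genes lay the other way. Of 37, 18 were called higher in RIP than in input (48.6%) and 2 lower, with a median log2 fold change of 0.56 and a median length of 2545 bases. Mdn1, a large assembly factor of the large subunit, had 12.01 and 15.2 FPKM in input and 64.1 and 63.2 FPKM in RIP (log2 fold change 2.16, SE 0.15, adjusted p = 0.000765, limma). Nop56, a core protein of small nucleolar ribonucleoproteins, had 42.7 and 34.9 FPKM in input and 96.3 and 104.7 FPKM in RIP. Of 14 regulators of TOP mRNAs, with a median length of 3954 bases, 7 were called higher and 3 lower. Larp1 stood at 17.1 and 20.2 FPKM in input and 46.4 and 49.8 FPKM in RIP. Mtor stood at 10.4 and 8.90 FPKM in input and 35.2 and 34.1 FPKM in RIP. Cnbp, an RNA-binding protein, stood at 60.1 and 67.0 FPKM in input and 26.3 and 25.6 FPKM in RIP. Transcript lengths were 15091 bases for Mdn1, 8416 for Mtor, 6357 for Larp1, 1892 for Cnbp and 1586 for Nop56. The part of length in these lists was not tested. Against IgG, 13 of the 37 biogenesis genes were called higher (35.1%, against 13.7% of all genes) and 1 lower, beside 11 higher and 6 lower of 82 ribosomal protein genes.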

How the data were processed

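The deposited values are FPKM per GENCODE vM14 transcript, per the file headers, and the tools listed in the submitters' processing notes are Cuffdiff 2.2.1, STAR 2.5 and SAMtools, with build GRCm38.p4 (mm10). Strand settings and filters are not stated in the sources at hand, so a gene and its antisense partner cannot be told apart for the 23 genes with a gene on the opposite strand. Of 128508 transcripts 127975 were matched to GENCODE vM21 by ID, and FPKM were summed per symbol. No column was left unused. The column of 1 cKO library was matched by its library number. Retained-intron and coding transcripts follow the GENCODE biotype.

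Genes averaging 1 FPKM or more were tested on log2(FPKM + 1), which understates changes of low genes, with limma 3.58.1 in R 4.3.3 (trend and robust empirical Bayes, two-sided, Benjamini-Hochberg over all genes at 0.05), and the fits were tested on simulated data. Tables and figures used Python 3.11.15, pandas 2.3.3, numpy 2.4.6 and matplotlib 3.10.9. The members and gene lists were chosen with earlier results of these data known. Genes were named by rank: the 6 highest and 6 lowest fold changes, the 4 smallest p and the 5 highest and 5 lowest levels per table, calls in the rarer direction, paralogues and up to 3 genes of each related list. Some genes that this rule selects are left out of the text.

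The trios come from the same pools, per the series design, and deviations of same-lettered libraries correlated at r = 0.00879 (RIP and IgG) and 0.012 (RIP and input). Alternatives were other pseudocounts (0.1, 5), other filters (none, 5 FPKM), median-ratio and quantile scaling, limma without trend, a replicate block, coding transcripts alone, pseudogenes added to their parent, the length trend removed and each library left out. The retained-intron ratio was added after the data were seen.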

Additional observations from a re-analysis of the deposited data

Results flagged for a closer look

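Samples far from the other 3 of their group were looked for among the named genes and the summed levels in frontal cortex, where chance gives about 1 in 20 groups. In the cKO group 12 genes had 1 library far above the other 3, and it was cKO 1 each time. The values in cKO 1 were 219 FPKM (218.6) for Rpl10a, 244 for Rpl23, 428 for Rpl23a, 349 for Rpl3, 210.1 for Rpl30, 358 (357.9) for Rpl34, 225 for Rpl36a, 66.2 for Rpl36al, 524 (523.9) for Rpl4, 219 (218.7) for Rpl6, 639.7 for Rplp0 and 303 (302.7) for Rps23. The 12 genes share the library, so they are 1 pattern. In wild type, Rpl39 was high in wild type 1 (180.5 FPKM), Rpl39l in wild type 2 (0.321 FPKM) and Rpl3l in wild type 1 (0.101 FPKM), the last 2 at levels where other libraries were listed at 0.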

How the results depend on the processing

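In the cKO 0 genes were called by limma in either direction in every setting tried, and the median log2 fold change ran from -0.02 to 0.09 when 1 library was left out. Against input, 39 to 51 genes were called lower and 0 to 2 higher when 1 library was left out, with a median from -1.28 to -0.93. Coding transcripts alone moved that median to -1.38 and removal of the length trend to -0.67. The count called higher against input was 0 with no filter, with quantile normalization and without trend, 2 at a mean of 5 FPKM, 3 with the replicate block and 9 with the length trend removed. Against IgG, 0 to 4 genes were called higher and 0 to 5 lower when 1 library was left out, with a median from -0.12 to 0.17 (0.165). The count higher was 3 with quantile normalization, 0 without trend and 22 with the length trend removed, which moved the median to 0.29. The count lower was 10 at a mean of 5 FPKM, 11 with quantile normalization, 2 without trend and 11 with the replicate block. The block changed no other count by over 1.5 times. All these are counts of ribosomal protein genes, without the share of all genes called under the same setting. The causes were not tested, apart from the fewer libraries in the fits that leave 1 out. In such pull-down fits the lone library of a group is assumed to vary like the other group. Over all pairs of a named gene and a setting, 762 kept direction and side of the threshold, 81 lost a call and 27 gained one. In the cKO set same-numbered libraries correlated at 0.176, 0.0173, -0.0394 and 0.0659. Such values cannot show whether same-numbered libraries share more than a number. With unknown depth and 2 libraries a group, a gene without a call is not shown to be unchanged.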
